A study of Mus musculus with 16 samples.

Results

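Inguinal subcutaneous adipose tissue (SAT) of obese mice was compared with the same depot of lean mice, over all transcripts that were counted. The comparison was between 8 of the 16 libraries of the series, 4 from obese and 4 from lean mice, each from a different animal. All mice were wild-type male C57BL/6J. From 10 weeks of age the obese group received a high-fat Western diet with 42% of its calories from fat and 0.2% cholesterol, the lean group stayed on normal laboratory chow, and both diets lasted 12 to 14 months. The same mice also gave mesenteric visceral adipose tissue (VAT). Its libraries shared the fit, so the filter, the scaling and the estimate of spread came from all 16 libraries. VAT results are given only to set the response of SAT beside that of the other depot. With 1 inbred strain, 1 sex and 1 long feeding period, the groups describe that model and no other.

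Subcutaneous fat stores triglyceride in adipocytes, which take up fatty acids from lipoproteins, make fatty acids of their own from citrate and acetate, and release them again by lipolysis under the control of catecholamines and insulin. Adipocytes hold a large part of the free cholesterol of the body and sense it through the sterol-regulated SREBP pathway, in which Insig proteins retain the precursor in the endoplasmic reticulum when sterol is plentiful. The tissue also holds vessels, fibroblast progenitors, nerves and resident macrophages, and a poly(A) library of whole tissue mixes the RNA of them all.

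Depth was unequal between the groups. Lean SAT libraries held 4604460 to 11897722 counted reads and obese ones 10828758 to 16614407. In obese SAT the desaturase Scd1 alone took 23.7% to 25.7% of the counts, whereas the most abundant entry of a lean library took 6.22% to 14.0%, so levels are given as CPM, counts relative to library size, scaled by the trimmed mean of M values (TMM-CPM), which allows for such a shift in composition. The median log2 fold change over the 10295 genes tested, each by its most abundant transcript, was 0.01. The tissue label held: adiponectin (Adipoq) stood at 5257 to 6402 TMM-CPM in lean and 4406 to 5794 in obese libraries and leptin (Lep) at 9996 to 17253 TMM-CPM in lean and 12366 to 13879.7 in obese libraries, with no change past the test in either (-0.19 ± 0.16 and -0.11 ± 0.19 on the log2 scale). Summed markers of mesothelium stayed at or below 1.83 TMM-CPM, of glandular epithelium at or below 3.19 and of keratinocytes at or below 7.31 in every SAT library, and those of lymph node stroma ranged from 3.80 to 18.3 in lean and from 6.25 to 10.6 in obese libraries.

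By edgeR's quasi-likelihood test with Benjamini-Hochberg adjustment over all 13288 transcripts tested, 824 transcripts were higher and 644 lower in obese SAT at an adjusted p below 0.05 (6.20% and 4.85%). Of these, 365 (2.75% of all) changed by more than 1.5 on the log2 scale, 199 up and 166 down, and the lean and obese libraries did not overlap for 177 and 135 of them, against 9.61% and 7.64% of all transcripts. Both SAT group means were below 5 TMM-CPM for 128 of the 199 and 113 of the 166, so most of these calls rest on low levels. Fitted on the 8 SAT libraries alone, 164 were up and 144 down by more than 1.5. Without lean mouse 2 the counts at an adjusted p below 0.05 were 542 higher and 396 lower, and 103 were down by more than 1.5; without lean mouse 3, 544 were higher. Counted by gene, 709 of 10295 genes rose (6.89%) and 519 fell (5.04%), and these are the shares against which the gene groups below are read. The reads were counted per listed transcript, and a gene is given here by its most abundant one. How reads shared by several transcripts of a gene were assigned is not given in the sources used here, so the level printed for a gene with several entries is that of 1 entry and can lie far below that of the gene. For Pparg, Pnpla2, Mlxipl, Bcat2 and Mccc1 the most abundant entry is a noncoding transcript. A gene said to have risen or fallen kept an adjusted p below 0.05 with each mouse left out in turn and when the counts of its transcripts were summed, unless stated. Fold changes are obese against lean on the log2 scale, with the standard error (SE) of the fit, and the adjusted p is that of edgeR. Fewer cells of a type and less RNA per cell cannot be told apart in such tissue libraries.

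Among genes with separate groups and a mean of at least 5 TMM-CPM, leaving out the desaturases and the genes that led the study's own SAT comparison, the leading rises included Lpar3, Ubd, Ncan and Hapln4. Lpar3, a receptor for lysophosphatidic acid on chromosome 3 (GRCm39, 145926691 to 145991969), was at 7.02, 2.67, 3.24 and 4.25 TMM-CPM in the lean and 22.9, 36.0, 38.1 and 36.0 in the obese mice, with a log2 fold change of 2.91 ± 0.37 SE, adjusted p = 1.81e-05. All obese libraries lay above all lean ones, and the lowest obese value came from mouse 1. Ubd, which encodes the ubiquitin-like modifier FAT10 (37504783 to 37506987 on chromosome 17), was at 29.5, 16.5, 41.6 and 142 TMM-CPM in the lean and 284, 315, 287 and 414 in the obese mice (a log2 fold change of 2.54 ± 0.39 SE, adjusted p = 0.000191). Lean mouse 4 stood well above the other lean mice, yet the groups did not overlap.

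Ncan, the brain matrix proteoglycan neurocan, was at 41.3, 16.6, 21.3 and 46.4 TMM-CPM in the lean and 229, 224, 130.1 and 137 in the obese mice (a log2 fold change of 2.53 ± 0.30 SE, adjusted p = 1.02e-05), and Hapln4, a link protein that ties such proteoglycans to hyaluronan, at 1.07, 0.422, 0.762 and 3.19 TMM-CPM in the lean and 13.7, 10.5, 6.90 and 8.18 in the obese mice (a log2 fold change of 3.02 ± 0.39 SE, adjusted p = 2.52e-05). The groups were separate for both. Summed markers of nerve and Schwann cells, at 112 to 158 in lean and 169 to 193 in obese libraries, were separate as well, but overlapped without S100b, at 85.9 to 119 and 114 to 133, and their part in Ncan and Hapln4 was not tested. On chromosome 8 of GRCm39 the annotated genes overlap on opposite strands, Hapln4 from 70536106 to 70543533 and Ncan from 70538926 to 70573523. The strand setting of the counting is not given in the sources used here, so reads from the shared stretch cannot be assigned to either gene. The part of such reads in the levels of Hapln4 and Ncan was not tested.

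Lipocalin 2 (Lcn2), a secreted protein that binds iron-loaded siderophores, was at 2.40, 2.53, 1.05 and 3.40 TMM-CPM in the lean and 16.8, 13.2, 11.5 and 9.34 in the obese mice (a log2 fold change of 2.51 ± 0.30 SE, adjusted p = 1.29e-05). Tfr2, the second transferrin receptor, rose by 2.39 ± 0.31 and Hebp2, a haem-binding protein, by 2.50 ± 0.30 on the log2 scale. Lean libraries of Tfr2 and Hebp2 stayed under 5 TMM-CPM, and no obese library overlapped them.

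Tlr13, the endosomal receptor for bacterial ribosomal RNA, was at 8.26, 8.02, 6.10 and 10.0 TMM-CPM in the lean and 43.2, 26.9, 32.7 and 34.9 in the obese mice (a log2 fold change of 2.11 ± 0.24 SE, adjusted p = 6.46e-06). Csf2rb2, a beta chain of the interleukin-3 receptor with a close paralog, rose by 1.83 ± 0.23 and Dock2, an activator of Rac in blood cells, by 1.73 ± 0.23. Sorl1, a sorting receptor of endosomes, rose by 1.85 ± 0.25, and Baiap2l1, an adaptor between the membrane and actin, by 2.10 ± 0.23. The lean and obese libraries of each of these genes were separate, as the plot of leading genes shows.

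**Figure D1:**
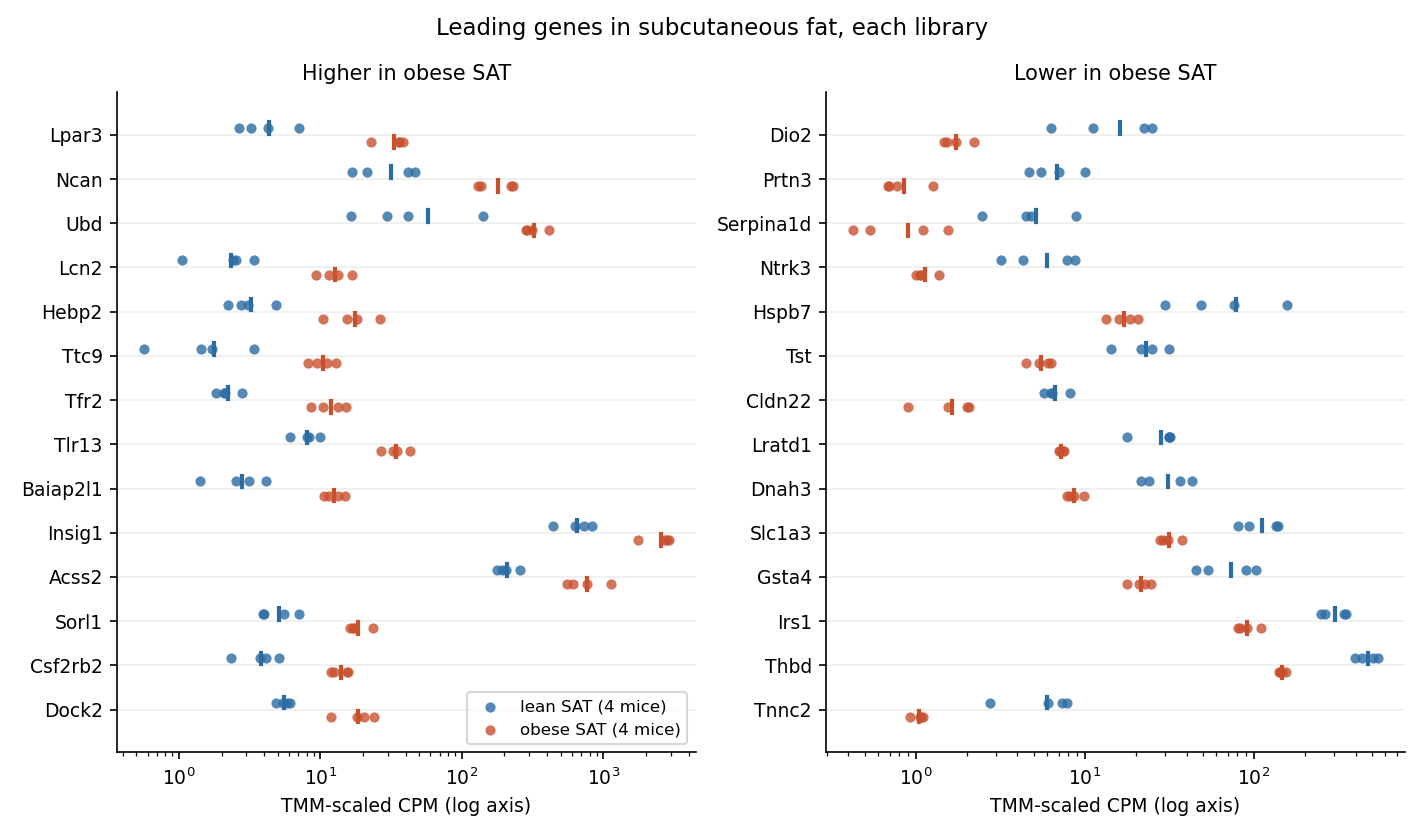
TMM-CPM on a log axis of 14 genes higher and 14 lower in obese SAT. Points are single libraries, 4 lean and 4 obese, and the short vertical lines are the means of the groups. No lean library overlaps an obese one for any of the genes; Thbd, for example, spans 396 to 546 TMM-CPM in lean and 141 to 155 in obese libraries.

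The leading decreases included Thbd, Dio2, Slc1a3 and Gsta4. Thrombomodulin (Thbd), the endothelial surface protein that turns thrombin into an anticoagulant, had the smallest adjusted p of the genes named here. Its levels were 504, 546, 438 and 396 TMM-CPM in the lean and 147, 144, 155 and 141 in the obese mice (a log2 fold change of -1.68 ± 0.11 SE, adjusted p = 3.84e-09), and the obese mice lay within a narrow band far below the lean ones. Dio2, the deiodinase that activates thyroid hormone inside cells, was at 11.2, 6.33, 25.0 and 22.3 TMM-CPM in the lean and 1.54, 2.22, 1.73 and 1.47 in the obese mice (a log2 fold change of -3.22 ± 0.51 SE, adjusted p = 0.000237). The lean values were spread over a wide range, and the obese values were all low and close together.

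Slc1a3, a plasma membrane transporter of glutamate and aspartate on chromosome 15 (8663604 to 8741595), was at 80.1, 135, 138 and 94.0 TMM-CPM in the lean and 27.7, 29.0, 31.2 and 37.8 in the obese mice (a log2 fold change of -1.83 ± 0.17 SE, adjusted p = 4.83e-07). Gsta4, a glutathione transferase that clears 4-hydroxynonenal and similar products of lipid peroxidation, fell by 1.77 ± 0.24 and Tst, the mitochondrial sulfurtransferase rhodanese, by 2.05 ± 0.22 on the log2 scale. Ntrk3, the receptor of neurotrophin 3, fell by 2.41 ± 0.32. None of their obese libraries reached a lean one.

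Prtn3, a neutrophil serine protease, was at 4.71, 9.99, 5.53 and 7.02 TMM-CPM in the lean and 0.692, 1.27, 0.690 and 0.772 in the obese mice (a log2 fold change of -2.99 ± 0.41 SE, adjusted p = 4.5e-05), while the summed level of the listed neutrophil markers was 12.2 to 23.8 in lean and 16.77 to 20.02 in obese libraries. Tnnc2, a troponin of fast muscle, fell by 2.55 ± 0.35. Of the 6 muscle markers tested it was 1 of 2 that fell, with Myl1, a myosin light chain with means of 7.21 ± 1.80 TMM-CPM in lean and 3.59 ± 0.97 in obese libraries (SD, n = 4), while Casq1, calsequestrin of muscle and the most abundant of them, rose, at 6.67 to 23.4 in lean and 21.8 to 42.6 in obese libraries. Leaving out single mice ended the call of Myl1 for lean mouse 2, 3 or 4 or obese mouse 2, 3 or 4, and that of Casq1 for lean mouse 2 or 3 or obese mouse 1 or 2. Serpina1d, one of several near-identical antitrypsin genes between which reads can be split, fell by 2.48 ± 0.46. Dnah3, a dynein of cilia, fell by 1.85 ± 0.21. The neutrophil sums overlapped between the groups, and the part of neutrophil and muscle content in Prtn3 and Tnnc2 was not tested.

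Cholesterol genes were mostly higher. Of 29 listed genes 20 were tested, 18 of them had a higher mean in obese SAT, 7 rose (35.0%) and 1 fell, and the median log2 fold change was 0.48. Insig1, the sterol sensor that retains the SREBP complex and is itself among its targets, was at 833, 438, 628 and 725 TMM-CPM in the lean and 2932, 2745, 1757 and 2836 in the obese mice (a log2 fold change of 1.97 ± 0.20 SE, adjusted p = 1.7e-06). All obese libraries were above all lean ones, and obese mouse 3 was the lowest of its group. The synthetic enzyme Nsdhl was at 115, 105, 124 and 139 TMM-CPM in the lean and 368, 291, 246 and 312 in the obese mice (a log2 fold change of 1.34 ± 0.13 SE, adjusted p = 4.62e-07), again with no overlap. Cyp51, the lanosterol demethylase, rose by 0.97 ± 0.16 and Abcg1 and Abca1, exporters of cholesterol from cells, by 1.31 ± 0.15 and 0.62 ± 0.15. Fdft1, squalene synthase, went the other way with a log2 fold change of -1.13 ± 0.24 SE, adjusted p = 0.00392. Srebf2, the gene of the transcription factor itself, did not pass the test (-0.47 ± 0.21).

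Genes that feed fatty acid synthesis moved in opposite directions. Of 19 lipogenesis genes tested, 7 rose (36.8%) and 3 fell (15.8%), with a median log2 fold change of 0.55, which was 0.10 without obese mouse 1 and 0.32 without lean mouse 1. Acss2, the cytosolic enzyme that makes acetyl-CoA from acetate, was at 191, 257, 205 and 178 TMM-CPM in the lean and 1139, 768, 549 and 615 in the obese mice (a log2 fold change of 1.88 ± 0.18 SE, adjusted p = 4.83e-07). Malic enzyme (Me1), a source of NADPH, was at 39.3, 52.5, 48.4 and 43.2 TMM-CPM in the lean and 134, 139, 96.9 and 109.6 in the obese mice (a log2 fold change of 1.39 ± 0.19 SE, adjusted p = 5.92e-05). Neither gene had overlapping groups. The elongases Elovl6 and Elovl5, which lengthen saturated and polyunsaturated fatty acids, rose by 1.08 ± 0.19 and 0.95 ± 0.19, and the mitochondrial citrate carrier Slc25a1 by 0.55 ± 0.12.

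Fatty acid synthase (Fasn) did not pass the test at 84.5, 102, 69.8 and 55.9 TMM-CPM in the lean and 129, 106, 64.8 and 62.2 in the obese mice (0.21 ± 0.20, edgeR adjusted p = 0.575). Thrsp, a lipogenic protein induced by carbohydrate and thyroid hormone, was at 987, 826, 667 and 615 TMM-CPM in the lean and 408, 417, 297 and 299 in the obese mice (a log2 fold change of -1.12 ± 0.17 SE, adjusted p = 0.000131). Mlxipl, the gene of the carbohydrate-responsive factor ChREBP, fell by 1.17 ± 0.27. For Thrsp the groups were separate.

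**Figure D2:**
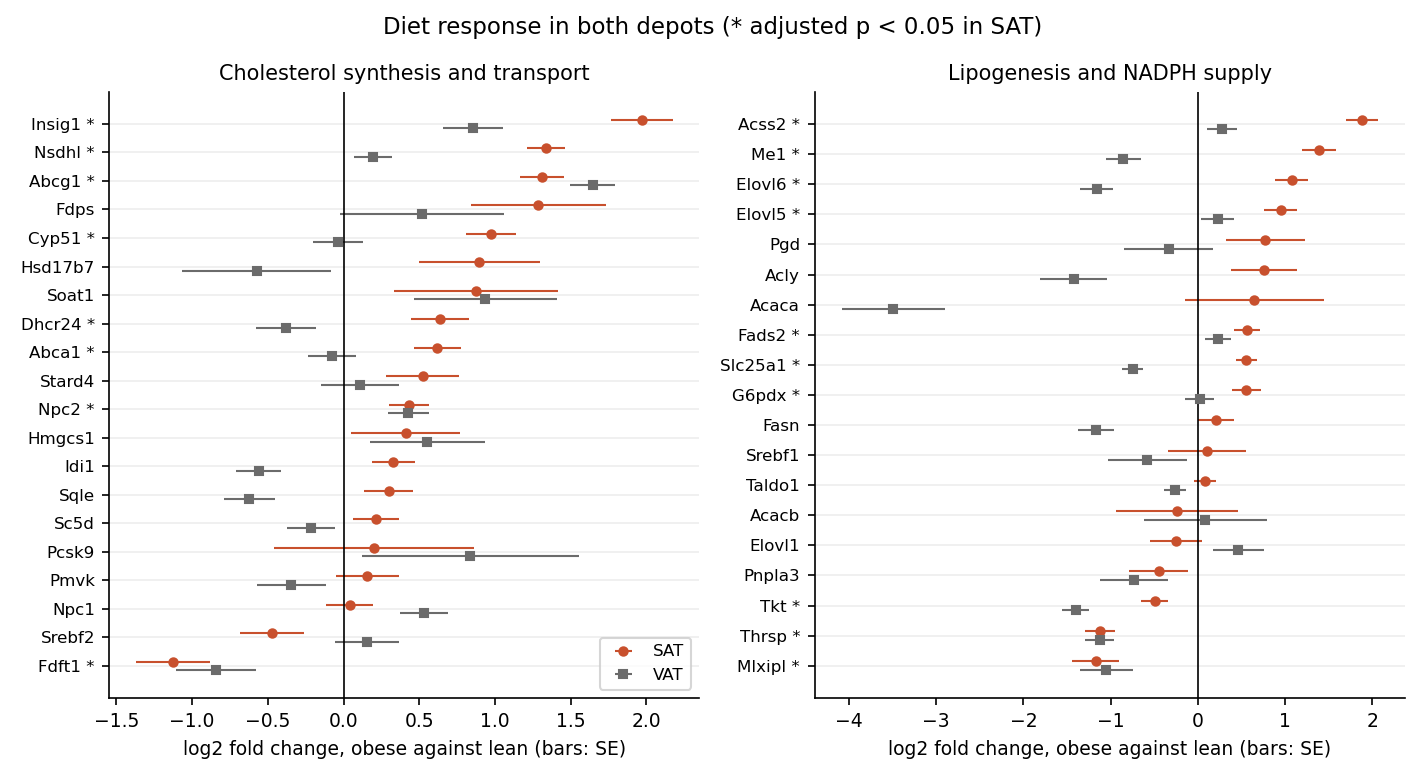
Log2 fold change of obese against lean mice, with bars for the SE, of the cholesterol and the lipogenesis genes in SAT (circles) and VAT (squares), 4 mice a group. In SAT the median is 0.48 for the cholesterol and 0.55 for the lipogenesis genes, the latter 0.10 without obese mouse 1; in VAT it is 0.13 and -0.73.

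To show what the rising genes carry upstream of their starts, the 250 bases before the RefSeq transcription start (GRCm38.p6) were searched on both strands for the letters CACGTG, an E-box that SREBP and ChREBP partners can bind, and for TCACNCCAC, the core of the classical sterol regulatory element. A window was at hand for 12 of the 14 genes of these groups that rose, for 3 of the 4 that fell (not for Fdft1) and for 16 of the 21 that passed in neither direction. The E-box letters were in a window of 4 of these 12, of 1 of the 3 with a window that fell, of 2 of the 16 that passed in neither direction and of 6.86% of all 27025 genes (6.02% of all 32851 windows, since a gene can have several). The sterol element letters were in a window of 0 of the 12, of 1 of the 3 with a window that fell (Mlxipl), of 1 of the 16 (Hmgcs1) and of 1.22% of all genes (1.05% of windows), which says only where these exact letters are. Windows of a gene with a large and a gene with a moderate rise are given, with the E-box in capitals.
Insig1, chr5:28071162-28071411, plus strand: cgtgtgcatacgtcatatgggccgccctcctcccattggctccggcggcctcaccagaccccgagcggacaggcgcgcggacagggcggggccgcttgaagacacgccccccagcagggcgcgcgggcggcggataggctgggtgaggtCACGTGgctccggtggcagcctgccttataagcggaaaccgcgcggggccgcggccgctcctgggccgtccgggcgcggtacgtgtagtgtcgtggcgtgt
Slc25a1, chr16:17928220-17928469, minus strand: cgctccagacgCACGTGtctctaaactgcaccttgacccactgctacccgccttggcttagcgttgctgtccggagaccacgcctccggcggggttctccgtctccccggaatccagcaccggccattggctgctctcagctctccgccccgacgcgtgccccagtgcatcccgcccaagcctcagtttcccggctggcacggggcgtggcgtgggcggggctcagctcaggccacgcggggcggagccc

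The diet response differed between the depots for some of these genes. Across 13288 transcripts the response differed between VAT and SAT for 288 (2.17%), by edgeR with the mouse as a block, and 8 of the 19 lipogenesis and 6 of the 20 cholesterol genes were among them, against 2.54% of all genes. The number was 185 without lean mouse 2, 152 without lean mouse 3 and 134 without obese mouse 4, and each depot difference named in this paragraph as past the test kept it without each mouse. Elovl6 rose by 1.08 ± 0.19 in SAT and fell by 1.16 ± 0.19 in VAT, a difference of -2.26 ± 0.16 (VAT minus SAT, adjusted p = 6.24e-09). Me1 differed by -2.26 ± 0.22 (adjusted p = 1.24e-06), Acss2 by -1.57 ± 0.17 (adjusted p = 8.27e-06) and Nsdhl by -1.13 ± 0.16 (adjusted p = 0.000214). Thrsp, in contrast, fell by 1.13 ± 0.17 in VAT as well, and its difference was 0.02 ± 0.17 (adjusted p = 0.98).

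The substrates of the insulin receptor moved apart. Irs1 (chromosome 1, 82210822 to 82269338), the main docking protein of the receptor in fat, was at 251, 343, 349 and 262 TMM-CPM in the lean and 91.5, 80.8, 111 and 83.2 in the obese mice (a log2 fold change of -1.72 ± 0.16 SE, adjusted p = 4.83e-07). Irs2, its relative, was at 201, 155, 165 and 133 TMM-CPM in the lean and 274, 350.3, 259.8 and 297 in the obese mice (a log2 fold change of 0.85 ± 0.15 SE, adjusted p = 0.000645). The groups were separate for both, in opposite directions. Of 16 genes of insulin signalling and glucose uptake tested, 1 rose and 2 fell, and without lean mouse 1, obese mouse 3 or obese mouse 4 the number that rose was 2. Gys1, described next, was the other that fell.

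Glycogen synthase 1 (Gys1) was at 341, 331, 364 and 302 TMM-CPM in the lean and 249.5, 253, 231 and 210.4 in the obese mice (a log2 fold change of -0.50 ± 0.13 SE, adjusted p = 0.0142). Pygl and Pygb, glycogen phosphorylases that were in no list and were chosen after their values were seen, fell by 1.12 ± 0.13 and 1.04 ± 0.13. Pygb was at 810.1, 937, 952 and 702 TMM-CPM in the lean and 422, 461, 400.5 and 375 in the obese mice. No obese library reached the lean range for any of these enzymes.

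Genes of branched-chain amino acid and ketone catabolism were lower. Of 22 tested, 21 had a lower mean in obese SAT, 8 fell (36.4%) and the median log2 fold change was -0.41. The count was 4 without lean mouse 2 and 5 without lean mouse 3, obese mouse 2 or obese mouse 3. Adipocytes are a main site of leucine, isoleucine and valine breakdown, which yields acetyl-CoA and odd-chain units. Ivd, isovaleryl-CoA dehydrogenase of the leucine branch, was at 69.7, 73.0, 76.6 and 64.0 TMM-CPM in the lean and 45.9, 50.2, 35.7 and 34.3 in the obese mice (a log2 fold change of -0.77 ± 0.14 SE, adjusted p = 0.000876). Mccc1, the next carboxylase of that branch, was at 29.9, 29.5, 36.8 and 32.1 TMM-CPM in the lean and 17.2, 17.5, 17.3 and 17.1 in the obese mice (a log2 fold change of -0.89 ± 0.16 SE, adjusted p = 0.000592). The obese values of Mccc1 were nearly alike, and neither gene overlapped between groups. Bcat2, the mitochondrial transaminase that opens the pathway, fell by 1.53 ± 0.26 and Bckdhb, a subunit of the branched-chain ketoacid dehydrogenase, by 0.80 ± 0.20. The other 4 that fell, Hibch, Hsd17b10, Mccc2 and Oxct1, lost the call without lean mouse 2, and for 3 of them without further mice. In VAT 12 of the 22 fell, against 4.39% of all genes, and the response differed between depots for 1.

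**Figure D3:**
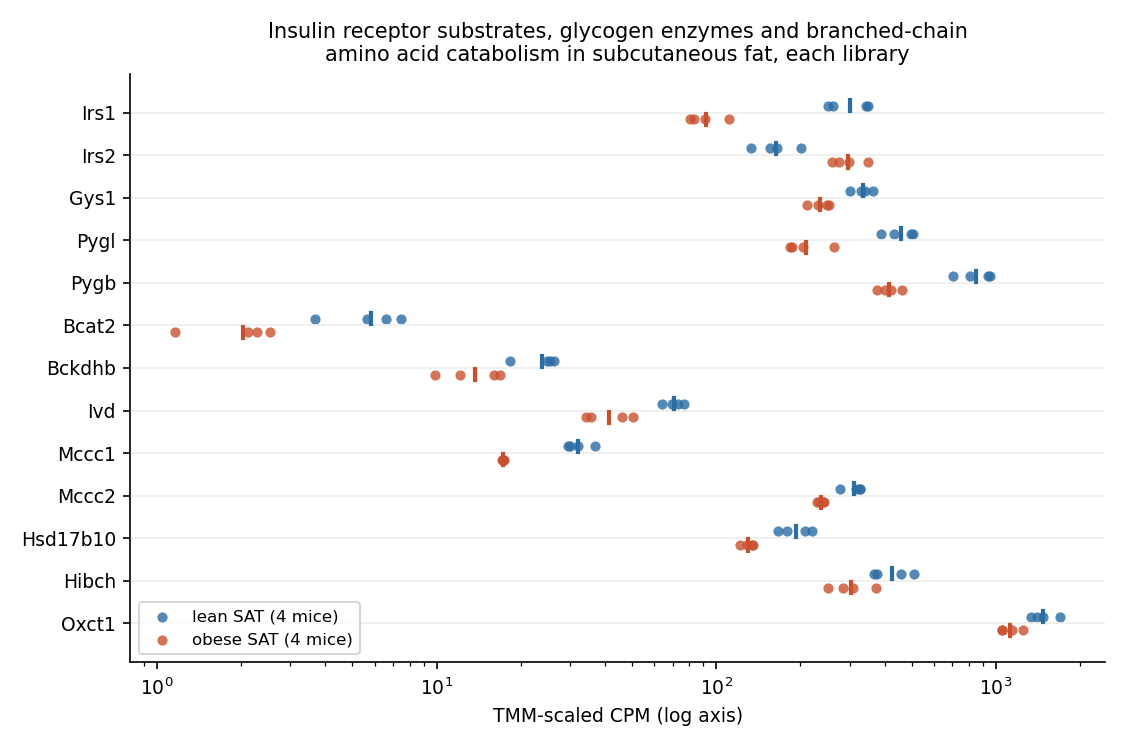
TMM-CPM on a log axis of the insulin receptor substrates, glycogen enzymes and fallen genes of branched-chain amino acid and ketone catabolism. Points are single SAT libraries, 4 lean and 4 obese, and short vertical lines the group means. Irs2 alone is higher in obese SAT, at 133 to 201 TMM-CPM in lean and 259.8 to 350.3 in obese libraries.

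Receptors and enzymes of lipolysis changed in both directions. Of 20 genes tested, 5 fell (25.0%) and 2 rose, but 1 rose by DESeq2 and without lean mouse 1, 2 or 3 or obese mouse 2. Adrb3, the beta-3 adrenergic receptor of adipocytes, was at 46.1, 99.5, 58.0 and 32.8 TMM-CPM in the lean and 39.1, 22.8, 28.4 and 18.8 in the obese mice (a log2 fold change of -1.12 ± 0.27 SE, adjusted p = 0.00801), and without lean mouse 2 its adjusted p was 0.0566. The groups overlapped, since lean mouse 4 lay below obese mouse 1. Hcar1, the lactate receptor that restrains lipolysis, fell by 0.86 ± 0.22, Ffar4, a receptor of long-chain fatty acids, by 0.61 ± 0.15, and Ces1d, a carboxylesterase that hydrolyses triglyceride, by 1.06 ± 0.19. Ptger3, the prostaglandin E2 receptor that inhibits lipolysis, rose by 1.36 ± 0.19. The lipase Lipe (-0.07 ± 0.17) and the noncoding entry of the lipase gene Pnpla2 (-0.49 ± 0.38) did not pass the test.

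Among 18 genes of triglyceride synthesis and lipid droplets, 4 rose (22.2%) and 1 fell. Hilpda, an inhibitor of adipose triglyceride lipase that sits on droplets, was at 14.5, 5.63, 3.24 and 11.3 TMM-CPM in the lean and 29.8, 65.0, 34.1 and 52.9 in the obese mice (a log2 fold change of 2.39 ± 0.40 SE, adjusted p = 0.000387). Plin2, a droplet coat protein of most cells, rose by 1.12 ± 0.25, and Agpat2, an acyltransferase of triglyceride synthesis, by 0.98 ± 0.26. Cidea, a droplet fusion protein of brown and beige fat, fell by 1.58 ± 0.30. Perilipin 1 (Plin1) did not pass the test (0.15 ± 0.19). Without obese mouse 2 only 2 rose and the adjusted p of Agpat2 was 0.0854, and without lean mouse 1, lean mouse 4 or obese mouse 3, 2 fell. Of the 18 genes of fatty acid uptake tested, 3 rose, among them the acyl-CoA synthetases Acsl1 (1.04 ± 0.23) and Acsl5 (0.72 ± 0.16). The 1 member that fell was Lpl, the lipase that frees fatty acids from lipoproteins, with a log2 fold change of -0.40 ± 0.12 SE, adjusted p = 0.031, and it did not pass without lean mouse 2 or 3 or obese mouse 2 or 3. Of the 18 genes 10 had a higher mean in obese SAT and the median log2 fold change was 0.12, while the summed level of the list, to which Lpl adds most, was lower, at 78980 to 95470 in lean and 62775 to 78221 in obese libraries.

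Of 10 thermogenic and beige fat genes tested, Dio2 and Cidea fell, and without lean mouse 4, 1 rose. Ucp1, the uncoupling protein of brown fat, is not in that list and was counted among the brown adipocyte markers, of which 5 were tested, 1 rose (2 without lean mouse 4) and 2 fell. It was at 0.413, 0, 0.095 and 0.213 TMM-CPM in the lean and 1.62, 1.70, 5.18 and 1.77 in the obese mice (a log2 fold change of 3.62 ± 0.62 SE, adjusted p = 0.000487), from 7 counted reads in all lean and 135 in all obese libraries. It rose from a level at the edge of detection, and obese mouse 3 was the highest. The summed level of brown adipocyte markers was 64.4 to 122 in lean and 60.5 to 71.9 in obese libraries, which overlap.

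Respiratory chain genes leaned downward by small amounts. Of 62 nuclear genes of oxidative phosphorylation 56 had a lower mean in obese SAT, with a median of -0.20, while 3 fell (4.84%, against 5.04% of all genes). That count was 8 when counts were summed per gene, 7 by DESeq2, 10 in the 8 SAT libraries alone and 2 with no filter on low counts. Ndufb8, a complex I subunit, was at 145, 142, 169 and 138 TMM-CPM in the lean and 89.5, 88.0, 94.9 and 115 in the obese mice (a log2 fold change of -0.62 ± 0.13 SE, adjusted p = 0.00282). Without lean mouse 1 the number that fell was 8 and without obese mouse 4 it was 6. The 13 transcripts from mitochondrial DNA overlapped in their summed level, at 133903 to 199244 in lean and 109716 to 179301 in obese libraries. Of 24 fatty acid oxidation genes tested 1 rose (4.17%) and 2 fell (8.33%), 8 had a higher mean, and the median was -0.15. Of 24 citrate cycle and pyruvate genes 1 rose and 1 fell (4.17% each), 7 had a higher mean, and the median was -0.19. With single mice left out the numbers that fell were 0 to 3 and 0 to 5. Against these medians Cpt1b, the muscle-type importer of fatty acids into mitochondria, rose by 1.65 ± 0.33. Pdk4, the kinase that shuts pyruvate dehydrogenase, rose by 0.93 ± 0.21.

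**Figure D4:**
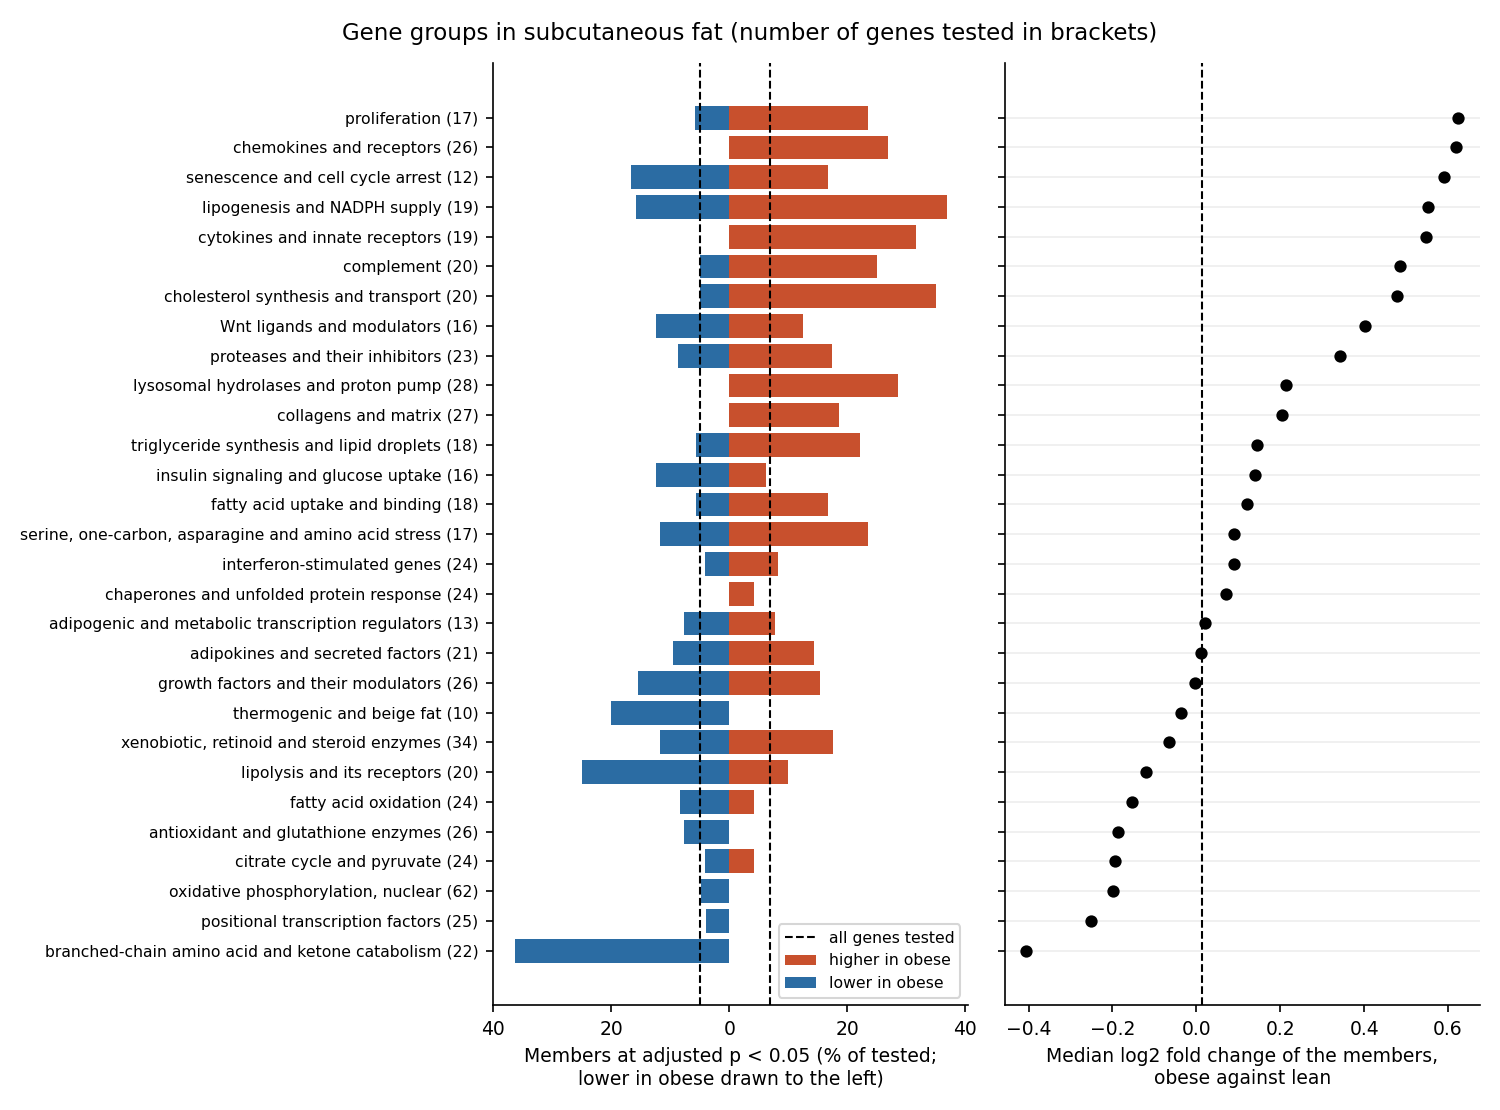
Groups of process genes with 10 or more genes tested, without the mitochondrial DNA transcripts and the cytosolic ribosomal proteins. The left panel gives the percent of members at an adjusted p below 0.05 that were higher or lower in obese SAT (dashed lines at 6.89% and 5.04% of all 10295 genes). The right panel gives the median log2 fold change of the members (dashed line at 0.01). Branched-chain amino acid catabolism has the lowest median and the largest share lower in obese SAT, at 36.4%.

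Stress genes of the amino acid response moved both ways. Of 17 tested, 4 rose (23.5%) and 2 fell (11.8%). Ddit4, an inhibitor of mTORC1, was at 114, 34.2, 27.9 and 60.6 TMM-CPM in the lean and 237, 311, 185 and 281 in the obese mice (a log2 fold change of 2.09 ± 0.33 SE, adjusted p = 0.000197), and Sesn2, another mTORC1 inhibitor, and Chac1, which degrades glutathione, rose by 0.90 ± 0.17 and 1.19 ± 0.28. Phgdh, the first enzyme of serine synthesis, was at 659, 598, 573 and 598 TMM-CPM in the lean and 385, 430.0, 349.7 and 309 in the obese mice (a log2 fold change of -0.72 ± 0.13 SE, adjusted p = 0.000772). Ddit4 and Phgdh had separate groups. Ddit3, a transcription factor of the unfolded protein response, fell by 0.86 ± 0.19.

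Of 21 adipokines and secreted factors tested 3 rose and 2 fell, of 26 growth factors and their modulators 4 rose and 4 fell, and with single mice left out the numbers that rose were 1 to 5 and 1 to 3 and those that fell 1 to 3 and 3 to 4. Retnla, a resistin-like protein of adipose tissue and alternatively activated macrophages, was at 1062, 861, 723 and 1063 TMM-CPM in the lean and 433, 342, 478 and 601 in the obese mice, with means of 927 ± 166 in lean and 463 ± 108 in obese mice (SD, n = 4) and an adjusted p of 0.000473. Igfbp5, a binding protein of insulin-like growth factors, fell by 0.77 ± 0.14, Timp4, an inhibitor of matrix proteases, by 1.52 ± 0.26, and Nnat, an imprinted gene that encodes a membrane proteolipid, by 1.21 ± 0.17. Fgf9, a fibroblast growth factor, rose by 1.53 ± 0.28 in SAT against -0.59 ± 0.29 in VAT (difference -2.17 ± 0.41, adjusted p = 0.00503). Hspb7, a small heat shock protein of muscle, had the opposite direction in the depots, at 158, 76.8, 29.9 and 48.7 TMM-CPM in the lean and 20.7, 18.5, 15.9 and 13.3 in the obese mice in SAT (a log2 fold change of -2.20 ± 0.36 SE, adjusted p = 0.000271) and with a log2 fold change of 1.44 ± 0.36 in VAT (difference 3.36 ± 0.38, adjusted p = 1.32e-05).

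Macrophage genes were higher. Of 16 markers tested 8 rose and 14 had a higher mean, with a median of 0.61, and their summed level was 909 to 1286 in lean and 1555 to 2046 in obese libraries. Cd68, a lysosomal glycoprotein of macrophages, was at 41.1, 33.3, 35.5 and 40.4 TMM-CPM in the lean and 109, 90.0, 117 and 91.0 in the obese mice (a log2 fold change of 1.44 ± 0.18 SE, adjusted p = 1.92e-05). Csf1r, the receptor of the macrophage growth factor, was at 252, 291, 236 and 259 TMM-CPM in the lean and 474, 383, 563 and 401 in the obese mice (a log2 fold change of 0.81 ± 0.13 SE, adjusted p = 0.00022). Mrc1, the mannose receptor of tissue macrophages, rose by 0.71 ± 0.12 and F13a1, a clotting transglutaminase of tissue macrophages, by 0.94 ± 0.19. The groups of Cd68 and Csf1r did not overlap.

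Markers of lipid-associated macrophages were all higher in mean, 12 of 12, and 5 rose (41.7%). Itgax, an integrin of macrophages and dendritic cells, was at 22.9, 11.4, 9.05 and 28.1 TMM-CPM in the lean and 43.2, 38.5, 62.2 and 41.0 in the obese mice (a log2 fold change of 1.40 ± 0.30 SE, adjusted p = 0.0039), and Atp6v0d2, a proton pump subunit of macrophages and osteoclasts, rose by 2.73 ± 0.37. Trem2, the lipid receptor of these cells, did not pass the test in SAT (1.75 ± 0.71, adjusted p = 0.123). Their summed level was 387 to 559 in lean and 650 to 779 in obese libraries, and 383 to 554 and 636 to 766 without Plin2, which adipocytes use as well. The response of Itgax was larger in VAT by 1.55 ± 0.33 (adjusted p = 0.0133, but 0.0688 without lean mouse 4 and 0.0628 without obese mouse 4), and 5 of the 12 differed between depots.

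Of 28 lysosomal genes tested 20 had a higher mean in obese SAT, with a median log2 fold change of 0.21, and 8 rose (28.6%), although the count was 4 without lean mouse 2 and 5 without lean mouse 3 or obese mouse 3. Ctsd, cathepsin D, was at 3667, 2804, 3320.3 and 4002 TMM-CPM in the lean and 6106, 6683, 6220.4 and 6727 in the obese mice (a log2 fold change of 0.90 ± 0.14 SE, adjusted p = 0.000233), with all obese libraries above the lean ones. Lipa, the acid lipase that frees cholesterol and fatty acids from ingested lipid, rose by 1.16 ± 0.19. Summed over the list the level was 7993 to 9638 in lean and 12472 to 13590 in obese libraries. Ctsd alone made up a large part of this sum and of its rise. Macrophages are rich in these enzymes, and the part of macrophage content in this sum was not tested.

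Chemokine and innate receptor genes rose in part. Of 26 chemokines and their receptors 7 rose (26.9%), and 4 rose without obese mouse 1. Ccl8, an attractant of monocytes, was at 22.0, 13.5, 15.6 and 31.1 TMM-CPM in the lean and 51.3, 48.7, 44.2 and 57.7 in the obese mice (a log2 fold change of 1.32 ± 0.24 SE, adjusted p = 0.000876), Ccl9 rose by 1.03 ± 0.18 and Cxcr3, a receptor of activated T cells, by 1.31 ± 0.30. Cxcl12, a stromal chemokine, rose by 0.99 ± 0.15 in SAT and was at -0.01 ± 0.15 in VAT (difference -0.999 ± 0.18, adjusted p = 0.0029). All 19 cytokine and innate receptor genes tested had a higher mean and 6 rose, among them Tlr8 (2.07 ± 0.41), Tlr9 (1.14 ± 0.24) and the tumour necrosis factor receptor Tnfrsf1b (0.82 ± 0.16). In VAT 16 of the chemokine genes and 11 of the cytokine and innate genes rose, against 7.98% of all genes there.

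Genes of antigen presentation and lymphocytes had few members past the test in SAT. Of 10 genes of MHC class II presentation 1 rose, H2-DMb1 by 1.07 ± 0.16; in VAT 8 rose, and the response of 4 differed between depots. Of 8 B cell markers tested 1 had a higher mean in obese SAT, 0 passed the test in either direction and the median log2 fold change was -0.25. Their sum was 19.4 to 26.1 in lean and 12.8 to 51.9 in obese libraries. The 51.9 was that of obese mouse 1, where Jchain alone was at 41.6. Markers of T and cytotoxic lymphocytes were all higher in mean, 11 of 11, with sums of 17.2 to 23.3 in lean and 22.2 to 50.1 in obese libraries, which overlap. Of the 72 cytosolic ribosomal protein genes 12 had a higher mean in obese SAT, but 0 passed the test in either direction and the median log2 fold change was -0.08. In VAT the median was 0.43 and 30 rose, and the response of 10 differed between depots.

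Complement genes changed in both directions. Of 20 tested 5 rose and 1 fell. Vsig4, the complement receptor of resident macrophages, was at 3.47, 4.92, 2.57 and 6.17 TMM-CPM in the lean and 16.2, 11.9, 13.8 and 17.6 in the obese mice (a log2 fold change of 1.86 ± 0.29 SE, adjusted p = 0.000191). C3ar1, the receptor of a complement fragment, rose by 1.08 ± 0.20. C2, a protease of the classical pathway, was at 308, 463, 368 and 196 TMM-CPM in the lean and 128, 101, 143 and 142 in the obese mice (a log2 fold change of -1.38 ± 0.18 SE, adjusted p = 3.94e-05), the only member that fell, with no overlap between the groups.

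Markers of adipocytes summed to 132705 to 165132 in lean and 87258 to 110714 in obese libraries. Without Car3 the sums overlapped, at 85643 to 105760 in lean and 71981 to 88169 in obese libraries. Car3, a carbonic anhydrase of adipocytes, was at 40059, 47062, 59372 and 45877 TMM-CPM in the lean and 15278, 18071, 19396 and 22545 in the obese mice (a log2 fold change of -1.35 ± 0.17 SE, adjusted p = 1.92e-05), while Adipoq, Plin1 and the noncoding entry of Pparg, the master regulator of adipocytes (0.02 ± 0.37), did not pass the test. Of the 11 adipocyte markers tested 1 rose and 2 fell, and 1 fell without lean mouse 2 or 3 or obese mouse 2 or 3.

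Of 27 collagens and matrix genes 5 rose (18.5%), with 2 without lean mouse 3 and 3 without lean mouse 2, where 1 fell. Col12a1, a fibril-associated collagen, was at 9.01, 7.32, 3.91 and 18.3 TMM-CPM in the lean and 30.8, 34.9, 43.7 and 27.9 in the obese mice (a log2 fold change of 1.90 ± 0.30 SE, adjusted p = 0.000191), and Thbs2, a matricellular protein, rose by 0.61 ± 0.14. The main fibrillar collagens Col1a1 (0.03 ± 0.24) and Col3a1 (-0.01 ± 0.16) did not pass the test. Among 11 endothelial markers Vwf, the von Willebrand factor stored in endothelial granules, was at 6.86, 6.19, 4.57 and 2.55 TMM-CPM in the lean and 15.5, 16.4, 20.4 and 12.7 in the obese mice (a log2 fold change of 1.64 ± 0.24 SE, adjusted p = 0.00013), and the marker sums overlapped at 256 to 491 in lean and 384 to 599 in obese libraries.

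**Figure D5:**
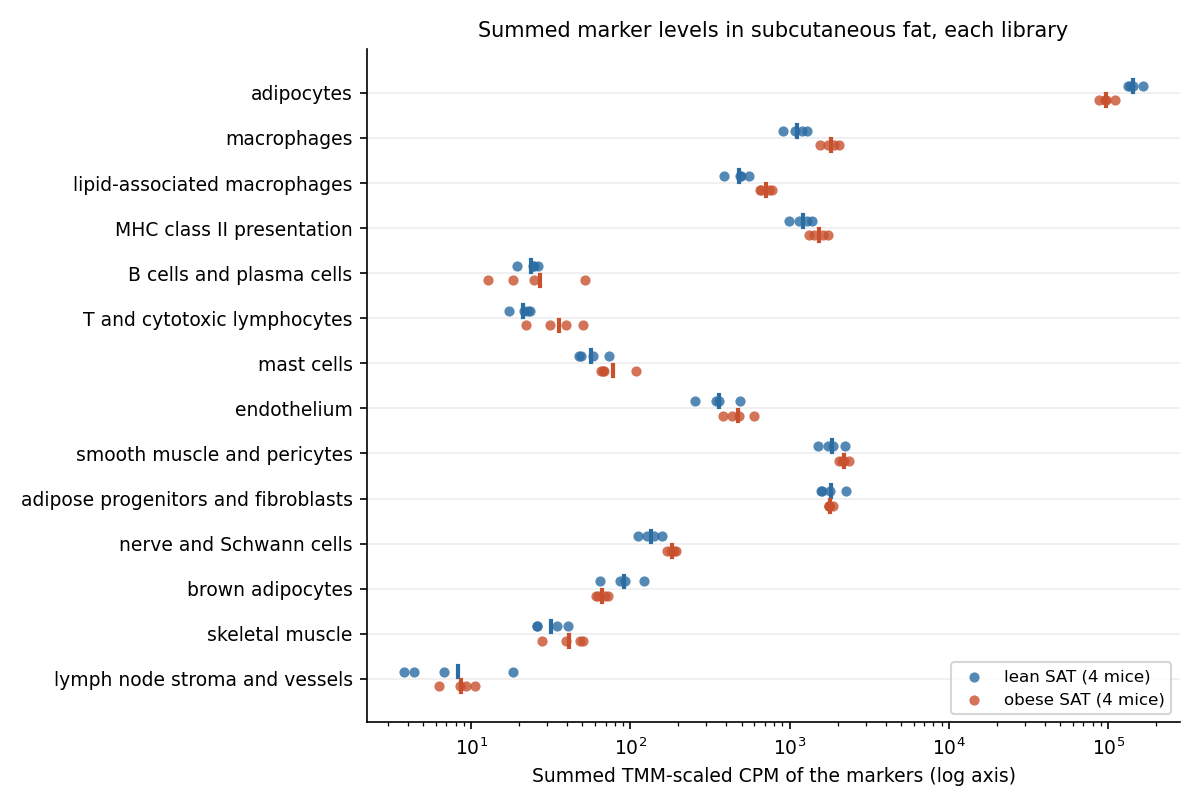
Summed TMM-CPM of the markers of each cell type in single SAT libraries, 4 lean and 4 obese, on a log axis, with short vertical lines for the group means. Macrophage sums are 909 to 1286 in lean and 1555 to 2046 in obese libraries, and the groups are also separate for lipid-associated macrophages. Those of adipocytes and nerve cells are separate with all markers and overlap without Car3 or S100b.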

How the data were processed

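RNA from inguinal SAT of 4 lean and 4 obese mice was sequenced from poly(A) libraries made with a directional kit. The counts were deposited as whole reads per RefSeq transcript entry, beside CPM that the authors computed from them; per the labels the build was GRCm39 and the tools were FastQC 0.11.9, Trim Galore 0.6.6, HISAT2 2.2.0, SAMtools 1.11, HTSeq 0.13.5, bedtools 2.29.2 and edgeR 3.34.0. The strand setting of the counting is not given in the sources used here. The deposited CPM only served to check the counts.

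Of 130343 entries 82% had a gene symbol. The 13288 transcripts above 1 CPM in 3 or more of all 16 libraries were fitted with edgeR 4.0.16 (TMM, quasi-likelihood F-test, 4 groups of tissue and diet). The depot difference had the mouse as a block. Transcripts were counted at a Benjamini-Hochberg adjusted p below 0.05, alone and with a log2 fold change beyond 1.5, and gene groups at an adjusted p below 0.05. The biological coefficient of variation was 0.211. In simulated data without a mouse effect, changes were planted only in transcripts above a limit on the expected count. In the SAT comparison 86% of changes of 1.5 and 98% of changes of 2.5 on the log2 scale were recovered. Of the calls over 13288 transcripts 4.66% were false. For the depot difference these were 63%, 92% and 7.19%. The recovery does not cover transcripts with few expected counts. The 4 mice of a group were separate animals, no 2 libraries agreed within sampling noise, and 3 counts are the limit that a count of 0 allows, which covers counting error only.

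Named genes were the 15 with the smallest adjusted p and the 10 with the largest change in each direction, among transcripts past both limits with separate groups and a mean of at least 5 in the higher group, members of the gene lists past both limits, up to 4 members a list and direction by adjusted p, and the defining cell type markers. The ranked choices left out the desaturases, clone names and the genes that led the study's own SAT comparison, which list members and markers such as Ucp1 could include; genes that the study set against each other between depots were kept. Abca1, Slc25a1, Srebf2, Fasn, Hcar1, Tlr9, Col1a1, Col3a1, Hibch, Hsd17b10, Mccc2, Oxct1, Lpl, Myl1, Casq1, Hmgcs1, Pygl and Pygb were added after their values were seen. The members and lists were chosen with earlier results of these data known. Alternatives were DESeq2 1.42.0, limma 3.58.1 (voom), edgeR's RLE scaling and newer setting, other or no filters on low counts, the 8 SAT libraries alone, counts summed per gene, a replicate block and leaving out each mouse. Leaving single markers out of the marker sums was chosen after seeing the data.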

Additional observations from a re-analysis of the deposited data

Results flagged for a closer look

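The diet response of 36 of the 127 named genes differed between mesenteric VAT and inguinal SAT of the same mice by edgeR with the mouse as a block, at an adjusted p below 0.05. Of all genes 2.54% differed. Many of the named genes were chosen for their change in SAT itself, which favours a difference of the opposite sign. The count and the directions are therefore no result about these genes as a set. The values are the VAT minus the SAT log2 fold change. Among genes that rose in SAT the response was lower in VAT for Sorl1 (-2.38), Ttc9 (-2.28), Me1 (-2.26), Elovl6 (-2.26), Baiap2l1 (-2.23), Fgf9 (-2.17), Hebp2 (-1.91), Gja1 (-1.60), Acss2 (-1.57), Hilpda (-1.39), Sgk1 (-1.34) and Vsig4 (-1.32). It was also lower in VAT for Vwf (-1.32), Acsl1 (-1.30), Slc25a1 (-1.30), Ccn1 (-1.15), Nsdhl (-1.13), Agpat2 (-1.10), Insig1 (-1.08), Ptger3 (-1.06), Cyp51 (-1.04), Cxcl12 (-0.999), Fstl1 (-0.79), Sesn2 (-0.72) and Aldh1a7 (-0.63). The response was higher in VAT for Atp6v0d2 (2.36), Ccl8 (1.44) and Itgax (1.55), of which Itgax and Atp6v0d2 mark lipid-associated macrophages and Ccl8 attracts monocytes. Of genes that fell in SAT, it differed for Hcar1 (-0.83), Hspb7 (3.36), Nnat (0.89), Serpina1d (2.80), Slc1a3 (0.71) and Thbd (0.87). It differed as well for Fasn (-1.33) and Plin1 (-0.77), which did not pass the test in SAT. Most of these calls were kept without each mouse, whereas those of Agpat2, Aldh1a7, Atp6v0d2, Ccn1, Fstl1, Gja1, Hilpda, Itgax, Plin1, Serpina1d, Sesn2, Slc1a3, Vsig4 and Vwf were lost without at least 1 mouse. Without the block, the calls of Acsl1, Hcar1, Insig1, Nnat, Ptger3 and Sgk1 were lost as well. Of the genes just listed, only Atp6v0d2, Gja1, Itgax and Serpina1d kept theirs without it. The edgeR adjusted p of the calls lost without the block ranged from 0.0511 for Acsl1 to 0.444 for Hilpda.

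A single library lay apart from the other 3 of its group, by Dixon's ratio above its 95% critical value, in 11 of 270 groups of 4 (4.07%), where chance gives about 1 in 20. In obese SAT these were mouse 1 for Lpar3 (22.9 TMM-CPM), Sorl1 (23.5) and the summed markers of adipose progenitors and fibroblasts (1881), mouse 2 for Prtn3 (1.27), mouse 3 for Insig1 (1757), Tlr8 (1.38) and Ucp1 (5.18), and mouse 4 for the summed mast cell markers (108.9). In lean SAT they were mouse 1 for Cxcl12 (144), mouse 2 for Lratd1 (17.9) and mouse 4 for Igfbp5 (4134). The calls of these genes were kept without the mouse concerned.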

How the results depend on the processing

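Without each mouse in turn, the number of transcripts higher in obese SAT at an adjusted p below 0.05 ranged from 542 to 831 and the number lower from 396 to 658; beyond 1.5 on the log2 scale they ranged from 165 to 232 and from 103 to 175. Each lowest value came without lean mouse 2, tied with obese mouse 2 for the 165, and without lean mouse 3 there were 544 higher. Transcripts whose response differed between depots numbered 288, and ranged from 134 without obese mouse 4 to 403 without lean mouse 1. They numbered 468 by DESeq2 and 128 without the mouse as a block. The cause was not tested. All fits that kept lean mice 2 and 3 left the 4 SAT counts within 1.5 times. Replicate numbers did not pair lean with obese mice (r of the deviations 0.03, -0.09, 0.05 and -0.03); with them as a replicate block, 917 transcripts were higher and 704 lower, 207 and 158 beyond 1.5. Of 115 named genes past the test in SAT, 106 kept it in every fit that gave a value, 9 lost it without a mouse and none turned direction. Lean SAT libraries reached down to 4604460 counts, so genes near 1 TMM-CPM rest on few reads. The VAT libraries of lean mouse 1 and obese mouse 1 held only 1256082 and 2247737 counts, and both enter the VAT results and the depot differences.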

Other observations

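Enzymes of xenobiotic, retinoid and steroid metabolism changed in both directions in obese SAT. Of 34 tested 6 rose (17.6%) and 4 fell (11.8%), and 3 rose without lean mouse 1, lean mouse 3 or obese mouse 4. Cyp4b1, a fatty acid and xenobiotic hydroxylase, rose by 0.83 ± 0.19, Ephx1, the microsomal epoxide hydrolase, by 0.97 ± 0.21 and Aldh1a7, a retinal dehydrogenase relative with close paralogs, by 0.67 ± 0.14. Cyp4v3, another fatty acid hydroxylase, fell by 0.92 ± 0.14, as Gsta4 did. Proliferation genes had a median log2 fold change of 0.62 over 17 tested, of which 4 rose (23.5%) and 1 fell (5.88%). The number that rose was 1 without lean mouse 2, 2 without obese mouse 3 and 7 without obese mouse 4 or by DESeq2, and the number that fell was 0 by edgeR without lean mouse 2, 3 or 4 or obese mouse 1, 3 or 4. Rrm2, the small subunit of ribonucleotide reductase, rose by 0.95 ± 0.24 and kept its call without each mouse.

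The following genes were chosen after their values were seen and support no group. S1pr1, a sphingosine 1-phosphate receptor of endothelium and lymphocytes, was at 415, 216, 226 and 179.5 TMM-CPM in the lean and 595, 608, 511 and 672 in the obese mice (a log2 fold change of 1.20 ± 0.19 SE, adjusted p = 0.000223). Vcam1, an adhesion molecule of activated endothelium, rose by 1.17 ± 0.15 and Gja1, the gap junction protein connexin 43, by 1.69 ± 0.25. The libraries of S1pr1 were separate between the groups, while the summed endothelial markers overlapped, at 256 to 491 in lean and 384 to 599 in obese libraries. Fstl1, a secreted glycoprotein of stromal cells, was at 826, 869, 757 and 1317 TMM-CPM in the lean and 2149.8, 1929.8, 2539.6 and 2659 in the obese mice (a log2 fold change of 1.30 ± 0.17 SE, adjusted p = 2.41e-05), Ccn1, a matricellular protein, rose by 1.58 ± 0.32 and Sgk1, a kinase induced by glucocorticoids and insulin, by 2.12 ± 0.30. Fam13a, a gene that human genetics links to fat distribution, fell from the lean to the obese mice with values of 143, 508, 340.0 and 167 TMM-CPM in the lean and 101, 81.3, 106 and 119 in the obese mice (a log2 fold change of -1.51 ± 0.29 SE, adjusted p = 0.00151). Obese libraries lay above lean ones for Fstl1 and below them for Fam13a.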
